A study of Mus musculus with 11 samples.

Results

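The floor of the mouse cochlear duct was compared between embryonic day 14 (E14) and embryonic day 16 (E16), taking every deposited cell of each library and no cluster or cell type. The comparison held 13214 of the 30634 cells of the series, 5253 from 2 E14 libraries and 7961 from 3 E16 libraries, so that 5 of the 11 samples entered. All 5 libraries came from wildtype CD1 mice, and all were droplet libraries (10x Genomics) of cochlear epithelium. According to the methods the ducts were loosened with thermolysin and DNase, and stroma, roof and lateral wall were then dissected away. The methods also describe each embryonic collection as a pool of littermates of either sex and the collections of a time point as separate, so a library is a pool of animals in which single embryos cannot be told apart. The p-values measure the spread between collections. The labels name no litter. No library held both stages, so stage cannot be told apart from collection, and fewer cells of a type cannot be told apart from less RNA of that type per cell in a library mean.

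The cochlear duct grows out of the otic vesicle, and its floor contains a strip of prosensory cells that later form the mechanosensory hair cells (HCs) and the supporting cells (SCs) around them. Prosensory cells leave the cell cycle in a wave from apex to base, and HC differentiation, driven by the transcription factor Atoh1, then follows from near the base towards the apex. Notch signaling between new HCs and their neighbours restricts the HC fate, while the cells medial to the sensory strip (Kölliker's organ) secrete much of the tectorial membrane.

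Levels are given as CPM, which here is the mean over a library's cells of the share of each cell's transcripts, counted by unique molecular identifiers (UMIs), times 1000000. Levels of a gene are listed in the order of the replicate numbers, 1 and 2 at E14 and then 1, 2 and 3 at E16. A fold change is the E16 minus the E14 mean of log2(CPM + 10), with its standard error (SE), and understates the change of genes near or below 10 CPM. A gene was called higher or lower when its adjusted p from limma (Benjamini-Hochberg over all genes tested) was under 0.05.

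The libraries held 1247 to 3901 cells and 3828399 to 14420835 UMIs. A median cell had 3507.5 and 3317 UMIs at E14 and 2478, 2695 and 2750 at E16, and the median share of UMIs from the mitochondrial genome was 0.645% and 0.861% at E14 and 1.42% to 2.03% at E16. With every cell drawn down to 1500 UMIs, a median cell still showed 982 and 979 genes at E14 and 802, 870 and 906 at E16 (exact two-sided permutation test over libraries, p = 0.1, the smallest that 2 against 3 libraries allow). Between 2 and 20 cell barcodes were shared by any pair of libraries, at most 0.802% of a library. Replicate 3 of E16 stood apart from the other E16 libraries: its root mean square log2 difference from them was 0.468 and 0.420, against 0.220 between E16 replicates 1 and 2, 0.210 between the E14 libraries and 0.510 to 0.618 between stages. Epcam, the defining adhesion molecule of epithelium, was present in all libraries at 666 to 879 CPM. Lists of other cell types were low: the 5 melanocyte genes summed to 2.20 to 5.23 CPM, the 9 mesenchyme genes with a row to 31.4 to 43.5 CPM and the 11 neuron and glia genes with a row to 200.5 to 265 CPM, while the 11 endothelial and immune genes summed to 18.5 and 14.1 CPM at E14 and 67.8, 54.5 and 32.7 CPM at E16. Nearly all of the endothelial and immune sum was Pecam1, at 17.9 and 14.0 CPM at E14 and 63.6, 53.5 and 31.8 CPM at E16. Haemoglobin and other red cell genes summed to 0.894 to 62.5 CPM in 4 libraries and to 948.7 CPM in E16 replicate 2. The authors had removed non-epithelial cells, so low sums of these lists are set in part by that step. Xist, the RNA of the inactive X chromosome and hence a sign of female cells, was at 387 and 0.901 CPM at E14 and at 1850.5, 1582 and 1051 CPM at E16, while the Y-linked Ddx3y was at 37.8 and 65.7 CPM at E14 and at 23.8 to 26.4 CPM at E16. E14 replicate 2 thus goes against a pool of both sexes. The stages did not overlap for either gene, but the E14 libraries differed widely in Xist, and Xist was not called. The part of the mix of sexes in the results below was not tested.

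Of 9004 genes tested, 497 (5.52%) were higher and 1249 (13.9%) were lower at E16. Of the called genes, 242 were more than 2-fold higher and 87 more than 2-fold lower. Without regard to the test, all 3 E16 libraries lay above both E14 libraries for 1266 genes (14.1%) and below both for 3822 (42.4%). The median log2 fold change of all tested genes was -0.16, and transcripts of ribosomal protein and mitochondrial genes took a larger share of the total at E16. After centring each library on its median gene the split turned, to 671 genes higher (7.45%) and 367 lower (4.08%), and with mitochondrial, ribosomal protein and haemoglobin genes taken out of each cell's total it was 532 (5.56%) and 443 (4.63%) of 9568 genes. No called gene named here had a fold change of another sign under these 2 scalings (Crabp2 and Rbpj, both near 0 and not called, turned from below to above 0). Genes that were no longer called under at least 1 of them are named as such. The medians of the FGF, BMP and TGF-beta, retinoic acid and stress response lists, all near 0, turned from below to above 0 under at least 1. Leaving out E16 replicate 3 raised the counts to 1480 higher (16.2%) and 2896 lower (31.8%) of 9121 genes, while leaving out either E14 library cut them to 69 higher and at most 7 lower. Of the genes given below as not called, Hes1, Krt18, Cldn4, Cdkn1b, Fst, Fgf8, Prox1, Fgfr3, Bmp4, Top2a, Mki67, Crabp2, Egr1, Fos, Notch1, Postn and Tecta were called without E16 replicate 3. The plot of list members by fold change gives an outline of the groups described next.

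**Figure D1:**
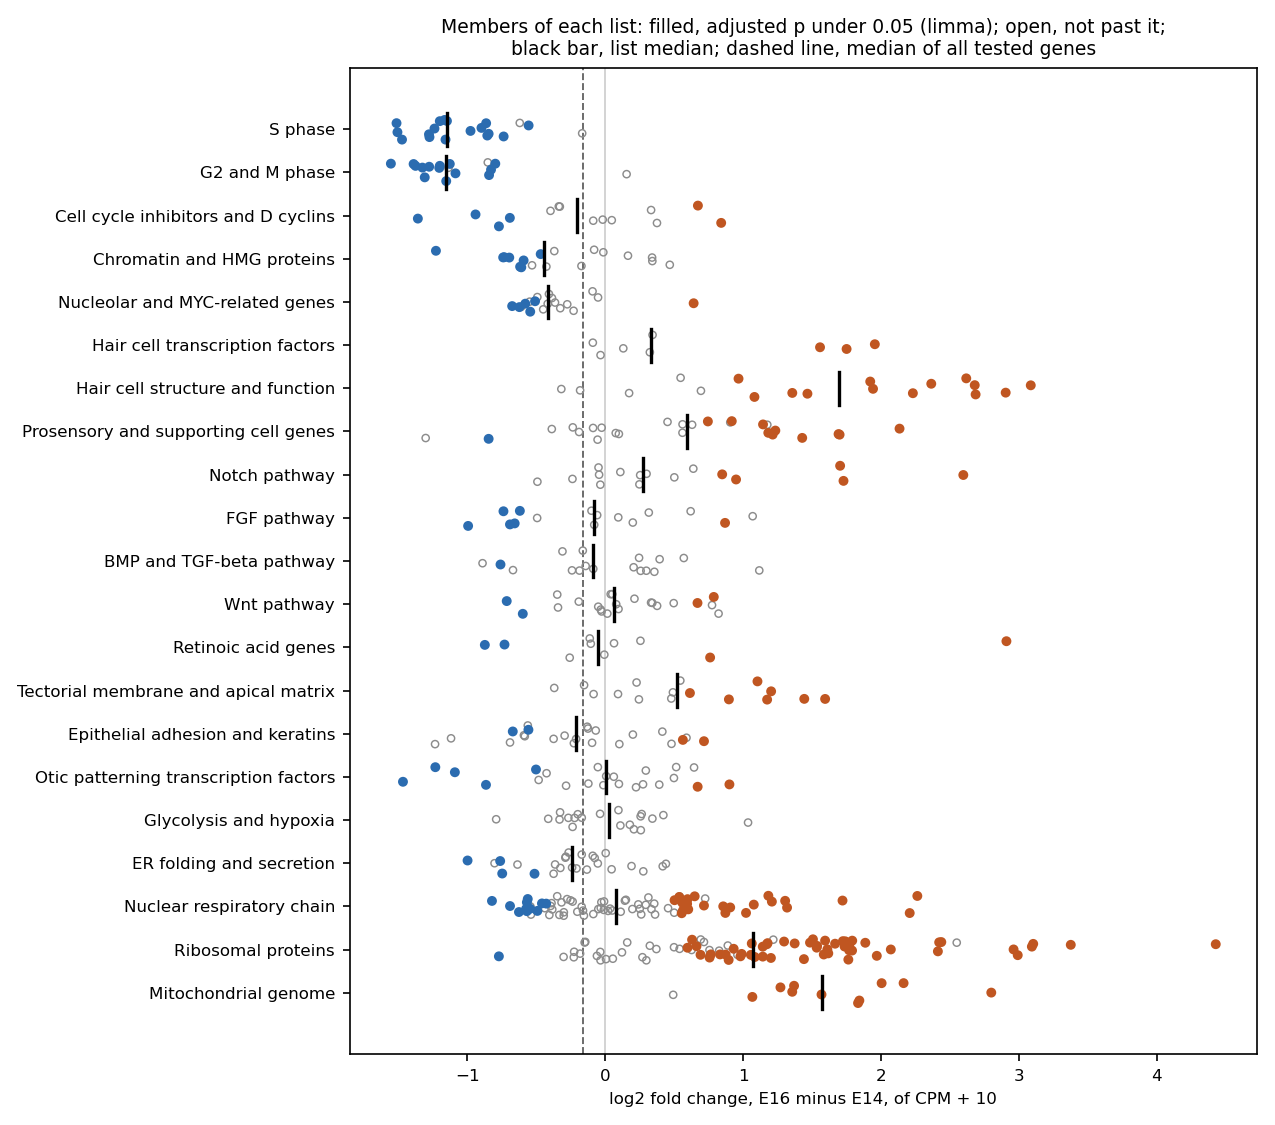
Log2 fold change of CPM + 10 (x axis, E16 minus E14) for the tested members of 21 gene lists (rows); each point is a gene, filled where called (limma, adjusted p under 0.05), black bars mark list medians and the dashed line the median of all 9004 tested genes, -0.16. S phase and G2 and M phase genes lie to the left with medians of -1.15, whereas hair cell structure genes (1.69), ribosomal proteins (1.07) and the mitochondrial genome (1.57) lie to the right. Without the filter at a mean of 10 CPM the medians were -0.86 for S phase, -0.94 for G2 and M phase and 0.75 for hair cell structure genes.

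Genes of DNA replication and mitosis fell together. Of the 25 S phase genes listed, 19 were tested and 17 of them fell, with a median log2 fold change of -1.15, against 13.9% lower among all genes. Of the 25 G2 and M phase genes, 17 were tested and 14 fell, also with a median of -1.15. The 6 and 8 other members were under the filter on low levels. No member of either list rose. After median centring 15 and 14 members were lower.

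Mcm5, a subunit of the replicative helicase (mm10, chr8:75109569-75128439), was measured at 40.0 and 42.9 CPM at E14 and at 5.52, 8.29 and 10.7 CPM at E16 (log2 fold change -1.51, SE 0.16, adjusted p = 0.00412). Mcm3, of the same helicase, stood at 36.9 and 38.6 CPM against 4.07, 8.37 and 9.69 CPM (-1.47, SE 0.17, adjusted p = 0.00531). Rrm2, the regulated subunit of ribonucleotide reductase, fell from 45.5 and 51.1 CPM to 11.6, 11.2 and 8.85 CPM (-1.51, SE 0.14, adjusted p = 0.00239). In each of these genes the lowest E14 library was more than 3 times the highest E16 library. Ccne1, the cyclin of S phase entry, had the smallest called fall of the list (-0.55, SE 0.16, adjusted p = 0.0496) and was not called under either scaling. Pcna, the sliding clamp, was at 47.7 and 40.4 CPM at E14 and at 39.7, 35.5 and 39.0 CPM at E16 and was not called (-0.17, SE 0.13, adjusted p = 0.386).

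Cenpa, the histone variant of centromeres (mm10, chr5:30666777-30674830), was at 105 and 129 CPM at E14 and at 37.8, 41.9 and 22.4 CPM at E16 (-1.55, SE 0.22, adjusted p = 0.00957). Ube2c, which loads ubiquitin on mitotic cyclins, was at 94.1 and 113 CPM against 39.1, 47.15 and 18.8 CPM (-1.39, SE 0.28, adjusted p = 0.0223), and Birc5, of the chromosomal passenger complex, at 63.6 and 80.6 CPM against 29.4, 25.1 and 12.6 CPM (-1.37, SE 0.25, adjusted p = 0.0167). E16 replicate 3 was the lowest library for all 3 genes, and the stages did not overlap. Cdk1, the mitotic kinase, fell by 1.28 on the log2 scale and Cdc20, an activator of the anaphase-promoting complex, by 1.31. Cenpe, a mitotic motor, had the smallest called fall of the list (-0.80, SE 0.14, adjusted p = 0.0158). Both Top2a and Mki67, familiar markers of cycling cells, missed the threshold and varied widely at E16: Top2a, a topoisomerase, was at 27.4, 14.5 and 4.46 CPM there against 34.3 and 51.0 CPM at E14 (adjusted p = 0.0749), and Mki67 at 13.3, 9.16 and 3.21 CPM against 20.0 and 25.3 CPM (adjusted p = 0.0515). Cks2, a subunit of cyclin-dependent kinases, was at 70.1 and 71.3 CPM at E14 and at 81.4, 73.8 and 84.8 CPM at E16 and was not called (0.16, SE 0.12, adjusted p = 0.374).

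The promoters of these genes are shown because the members moved together and because both lists are known to use short promoter elements. RefSeq promoters (GRCm38.p6, 250 bases before to 50 bases after the start site) were found for 22 of the 25 G2 and M phase genes and 21 of the 25 S phase genes. Capitals mark the CCAAT box (CCAAT, or ATTGG where it lies on the other strand) and the CHR element (TTTGAA, or TTCAAA), each searched on both strands. The first 3 promoters belong to the members of the G2 and M phase list with the largest falls and the fourth to the member of the S phase list with the largest fall; all are on the + strand.
Cenpa, chr5:30666636-30666935: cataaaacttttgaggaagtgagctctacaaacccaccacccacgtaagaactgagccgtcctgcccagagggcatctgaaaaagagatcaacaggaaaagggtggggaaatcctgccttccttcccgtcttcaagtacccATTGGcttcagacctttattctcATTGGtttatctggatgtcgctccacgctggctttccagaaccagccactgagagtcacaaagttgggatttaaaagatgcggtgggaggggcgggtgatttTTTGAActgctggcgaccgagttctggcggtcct
Ube2c, chr2:164769679-164769978: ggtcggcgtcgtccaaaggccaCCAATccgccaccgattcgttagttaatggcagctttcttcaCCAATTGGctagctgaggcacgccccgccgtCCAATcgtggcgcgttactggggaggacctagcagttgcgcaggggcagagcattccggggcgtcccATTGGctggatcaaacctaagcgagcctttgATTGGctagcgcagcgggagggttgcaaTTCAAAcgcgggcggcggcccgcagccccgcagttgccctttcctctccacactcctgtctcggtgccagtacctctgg
Birc5, chr11:117848987-117849286: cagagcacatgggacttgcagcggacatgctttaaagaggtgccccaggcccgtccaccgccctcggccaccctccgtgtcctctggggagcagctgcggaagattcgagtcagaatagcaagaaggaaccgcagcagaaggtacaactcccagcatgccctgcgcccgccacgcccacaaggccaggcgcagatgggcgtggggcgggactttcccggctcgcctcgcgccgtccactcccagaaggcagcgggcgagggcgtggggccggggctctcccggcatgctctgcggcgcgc
Mcm5, chr8:75109259-75109558: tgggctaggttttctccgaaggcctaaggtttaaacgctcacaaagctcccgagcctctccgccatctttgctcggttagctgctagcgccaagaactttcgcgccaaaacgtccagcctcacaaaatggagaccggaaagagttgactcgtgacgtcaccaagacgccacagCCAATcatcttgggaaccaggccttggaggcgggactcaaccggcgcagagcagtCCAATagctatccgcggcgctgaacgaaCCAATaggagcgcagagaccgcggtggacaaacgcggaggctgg
The Cenpa promoter held 2 CCAAT boxes, beginning 109 and 86 bases before the start site, and a CHR element that began 17 bases after it. In Ube2c there were 6 CCAAT boxes, of which a pair on opposite strands overlapped, and a CHR element that began 29 bases before the start site. Mcm5 held 3 CCAAT boxes and no CHR element, and none of these letters occurred in the Birc5 window. Over the lists, a CCAAT box was found in 19 of 22 G2 and M phase promoters (86.4%) and 14 of 21 S phase promoters (66.7%), against 37.9% of all 27025 promoters and 39.3% of the promoters of tested genes. A CHR element was found in 15 of 22 (68.2%) and 3 of 21 (14.3%), against 18.1% and 10.9%. The E2F site TTCCCGC, searched on both strands, occurred in 0 of 22 and 9 of 21 (42.9%), against 4.66% and 8.79%. These matches describe the letters of each window and do not show binding.

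The share of cells with cell cycle transcripts was lower in each E16 library than in either E14 library. With cells drawn down to 1500 UMIs, 29.1% and 30.5% of cells at E14 and 11.8%, 10.2% and 9.69% at E16 had at least 3 UMIs of the S phase and the G2 and M phase lists together. The means were 29.8% ± 1.01 (SD, n = 2) and 10.6% ± 1.09 (SD, n = 3) (exact two-sided permutation test, p = 0.1, the smallest possible). Other genes were also measured with these cells left out together with 2 further groups described below (Oc90 cells and cells with HC transcripts), named from here on as the 3 groups of cells. For genes that served to find those cells, a value without them is set by the choice of cells. With the 3 groups left out, 5.11% of all genes tested were higher and 12.7% lower.

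**Figure D2:**
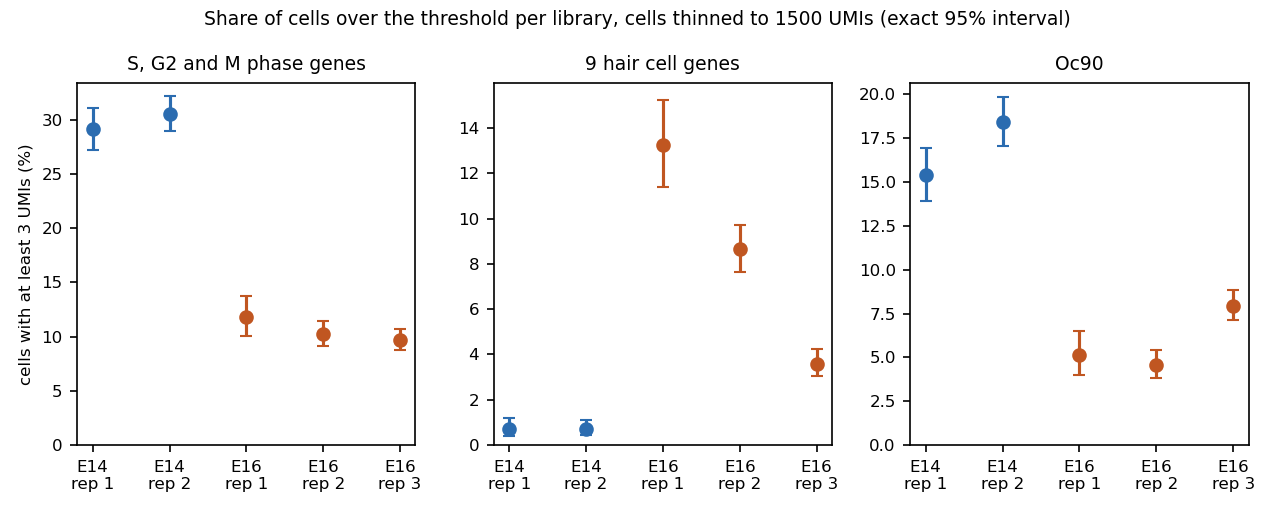
Percent of cells (y axis) with at least 3 UMIs of the S phase and the G2 and M phase lists (left), of 9 hair cell genes (middle) or of Oc90 (right) in each of the 5 libraries (x axis), with cells drawn down to 1500 UMIs and exact 95% binomial intervals, which cover counting error only. Cell cycle shares are 29.1% and 30.5% at E14 and at most 11.8% at E16, the 9-gene shares are 0.728% and 0.720% at E14 and between 3.59% and 13.2% at E16, and Oc90 shares are lower at E16.

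Regulators of cell cycle exit moved in both directions. Of 14 tested cell cycle inhibitors and D cyclins, 2 rose and 4 fell (median -0.21), against 5.52% higher and 13.9% lower among all genes. Without E16 replicate 3, 3 were higher and 7 lower (median -0.44), against 16.2% and 31.8%. Ccnd1, the cyclin of early G1, fell from 304 and 326 CPM to 129, 102 and 120.3 CPM (-1.36, SE 0.13, adjusted p = 0.00348), and this fall was as large with the 3 groups of cells left out (-1.46). Ccnd2 (-0.94) and their partner kinase Cdk4 (-0.77) were also lower, as was Gadd45g, a stress- and exit-linked gene (-0.69), but each lost its call under at least 1 of the scalings, and Gadd45g also without the Oc90 cells (-0.45). Rb1, the retinoblastoma protein that holds cells in G1, rose from 3.31 and 4.33 CPM to 20.6, 14.6 and 10.1 CPM (0.84, SE 0.19, adjusted p = 0.0289), and Btg1, an antiproliferative gene, from 542 and 445 CPM to 736, 812 and 819.9 CPM (0.67, SE 0.14, adjusted p = 0.0220). Cdkn1b, the inhibitor p27Kip1 that marks cell cycle exit of the prosensory domain, was at 32.3 and 26.8 CPM at E14 and at 42.96, 43.1 and 37.8 CPM at E16. Its E16 libraries all lay above those of E14, but it was not called (0.38, SE 0.13, adjusted p = 0.0911). It was called under some alternatives, among them median centring (adjusted p = 0.0398) and leaving out E16 replicate 3 (adjusted p = 0.0170). Without the Oc90 cells Cdkn1b had 0.26 (adjusted p = 0.190), and without the 3 groups of cells 0.13 (adjusted p = 0.562). Of 8 tested heterochronic and fetal growth genes 2 fell, against 13.9% among all genes (5 without E16 replicate 3, against 31.8%): Hmga2, a chromatin protein of embryonic cells, went from 201 and 201 CPM to 95.8, 79.3 and 90.6 CPM (-1.10, SE 0.12, adjusted p = 0.00499), and Igf2bp3, an RNA-binding protein, was lower (-0.52) but was not called under either scaling.

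Among 18 tested chromatin and high mobility group genes 8 fell and 0 rose (median -0.45), against 13.9% lower among all genes. Hmgb3, a chromatin protein of proliferating cells, went from 517 and 612 CPM to 248, 273 and 190.3 CPM (-1.23, SE 0.18, adjusted p = 0.00974), and Hmgb2 from 499 and 600.3 CPM to 309.9, 337 and 326 CPM (-0.74, SE 0.13, adjusted p = 0.0150). Ezh2 (-0.62) and Eed (-0.47), both of Polycomb repressive complex 2, were lower but were not called under either scaling. After median centring 1 member of the list was higher and 3 were lower, against 4.08% lower among all genes. With the 3 groups of cells left out 2 of 18 were lower, against 12.7% among all genes. Hmgb3 was still called there (-1.18), whereas Hmgb2 (-0.30, adjusted p = 0.175), Ezh2 (-0.37) and Eed (-0.52) were not. Of 19 nucleolar and MYC-related genes 5 fell and 1 rose (median -0.42), against 13.9% lower and 5.52% higher among all genes. Rrs1, a ribosome assembly factor, was among those that fell (-0.67). After median centring 1 was higher and 0 were lower. With the 3 groups of cells left out 8 of 19 were lower, against 12.7% among all genes. Nop10, a short protein of small nucleolar ribonucleoproteins, rose from 249 and 277 CPM to 407, 401 and 439 CPM (0.64, SE 0.12, adjusted p = 0.0170). Of 12 tested imprinted genes, a count near the background, Nnat, a small membrane protein, rose (1.04, SE 0.13, adjusted p = 0.00619), Mest, a hydrolase-like fetal gene, fell (-0.88, SE 0.12, adjusted p = 0.00862) and 10 were not called. Nnat had 0.61 with the 3 groups of cells left out. Without E16 replicate 3 the counts of higher and lower genes were 4 and 11 of 18 for chromatin, 1 and 13 of 19 for nucleolar and 2 and 4 of 12 for imprinted genes, against 16.2% and 31.8% among all genes.

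HC genes were among those with the largest rises. Of 16 HC transcription factors listed 8 were tested, and Atoh1, Pou4f3 and Barhl1 rose, against 5.52% higher among all genes (5 without E16 replicate 3, against 16.2%). Atoh1, which starts HC differentiation (mm10, chr6:64729125-64731245), went from 20.0 and 9.97 CPM to 96.2, 66.9 and 58.5 CPM (1.75, SE 0.24, adjusted p = 0.00895). Pou4f3, which keeps HCs alive and completes their differentiation, went from 24.7 and 20.4 CPM to 164, 133 and 70.0 CPM (1.96, SE 0.31, adjusted p = 0.0124). Barhl1, a homeobox factor of HC maintenance, was measured with 9 and 6 UMIs in the E14 libraries (0.469 and 0.294 CPM) and reached 38.4, 19.8 and 9.83 CPM at E16 (1.56, SE 0.34, adjusted p = 0.0258). In all 3 genes the libraries of the stages did not overlap, and E16 replicate 1 was the highest and replicate 3 the lowest. Gfi1, a further HC factor, was under the filter at 1.20 and 0.302 CPM at E14 and 6.46, 5.002 and 3.14 CPM at E16.

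Of 40 HC structure and function genes 18 were tested, and 13 rose while 0 fell (median 1.69, against 5.52% higher among all genes). The other 22 were under the filter or had no row, among them Myo7a, a stereocilia motor, at 0.710 and 1.18 CPM at E14 and 12.4, 6.85 and 3.08 CPM at E16. The filter takes the mean over all 5 libraries, so members such as Lhfpl5 passed it through their E16 levels. Without the filter the median of 32 members was 0.75, against -0.02 among all genes. Without E16 replicate 3, 15 of 18 tested members were higher and 2 lower, against 16.2% and 31.8% among all genes. Ccer2, Acbd7, Rprm, Cd164l2 and Gng8 in this list were put forward as HC markers by the study from other libraries of this series, so their direction is not independent evidence. Lhfpl5, a subunit of the mechanotransduction complex (mm10, chr17:28575641-28585679), had the largest rise of the genes named by rank: 1.86 and 2.76 CPM at E14 and 136, 110 and 55.3 CPM at E16 (3.09, SE 0.32, adjusted p = 0.00396). Pvalb, a calcium buffer of HCs, stood at 1.97 and 6.60 CPM against 148, 121 and 47.1 CPM (2.90, SE 0.42, adjusted p = 0.00974). Grxcr1, needed for normal stereocilia (2.69), Acbd7, an acyl-CoA-binding protein (2.68), Gng8, a G protein subunit (2.37), and Pcp4, a calmodulin-binding peptide (2.23), followed. Each of these genes was highest in E16 replicate 1 and lowest of the E16 libraries in replicate 3. Ccer2 was already at 94.3 and 77.6 CPM at E14 and reached 830.2, 572 and 404 CPM (2.62, SE 0.28, adjusted p = 0.00416). Smaller rises were measured for Cib2, of the mechanotransduction complex (1.94), Myo6, the motor at the stereocilia base (1.47), Espn, an actin bundler (1.08), and Cd164l2 (0.97). Calb1, a calcium buffer that is also made in medial Kölliker's organ, differed from these in its order: 174 and 136 CPM at E14 and 474, 748 and 642 CPM at E16 (1.92, SE 0.21, adjusted p = 0.00451), with E16 replicate 1 the lowest of its stage.

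Cells over a threshold on 9 HC genes were few at E14. A set of 9 genes (Pou4f3, Myo7a, Lhfpl5, Grxcr1, Acbd7, Gng8, Pvalb, Otof and Barhl1), chosen after their values were seen and hence given without a test, reached 3 UMIs in 0.728% and 0.720% of cells at E14 and in 13.2%, 8.64% and 3.59% at E16. Lhfpl5, Pvalb, Grxcr1, Acbd7, Gng8, Barhl1 and Myo7a of this set were under 10 CPM in both E14 libraries. The low share at E14 thus follows in part from the choice of genes. The planned set, both HC lists together, reached 3 UMIs in 62.6% and 57.4% of cells at E14 and in 64.1%, 69.6% and 74.0% at E16 (means 60.0% ± 3.64 and 69.3% ± 4.95, exact two-sided permutation test, p = 0.2). The lists hold widely expressed genes and most cells passed, so this threshold does not single out HCs. Leaving out the 9-gene cells removed 16 and 22 cells at E14 and 166, 243 and 140 cells at E16. Values of other HC genes without these cells therefore also depend on how the 9 genes were chosen. With the 9-gene cells left out together with cell cycle and Oc90 cells, Atoh1 had a log2 fold change of 0.03, Espn of 0.27, Cib2 of 0.37, Myo6 of 0.45, Pcp4 of 0.53, Cd164l2 of 0.18 and Ccer2 of 0.85, and none of the 7 was called. Calb1, which was not used to find the cells either, had 1.84. Rprm, of the same list and also not used, went the other way. It was at 129 and 109 CPM at E14 and at 183, 131 and 102 CPM at E16 with all cells, and was not called (0.17, SE 0.23, adjusted p = 0.607). With the 3 groups of cells left out Rprm was called lower (-1.16, adjusted p = 0.00438).

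**Figure D3:**
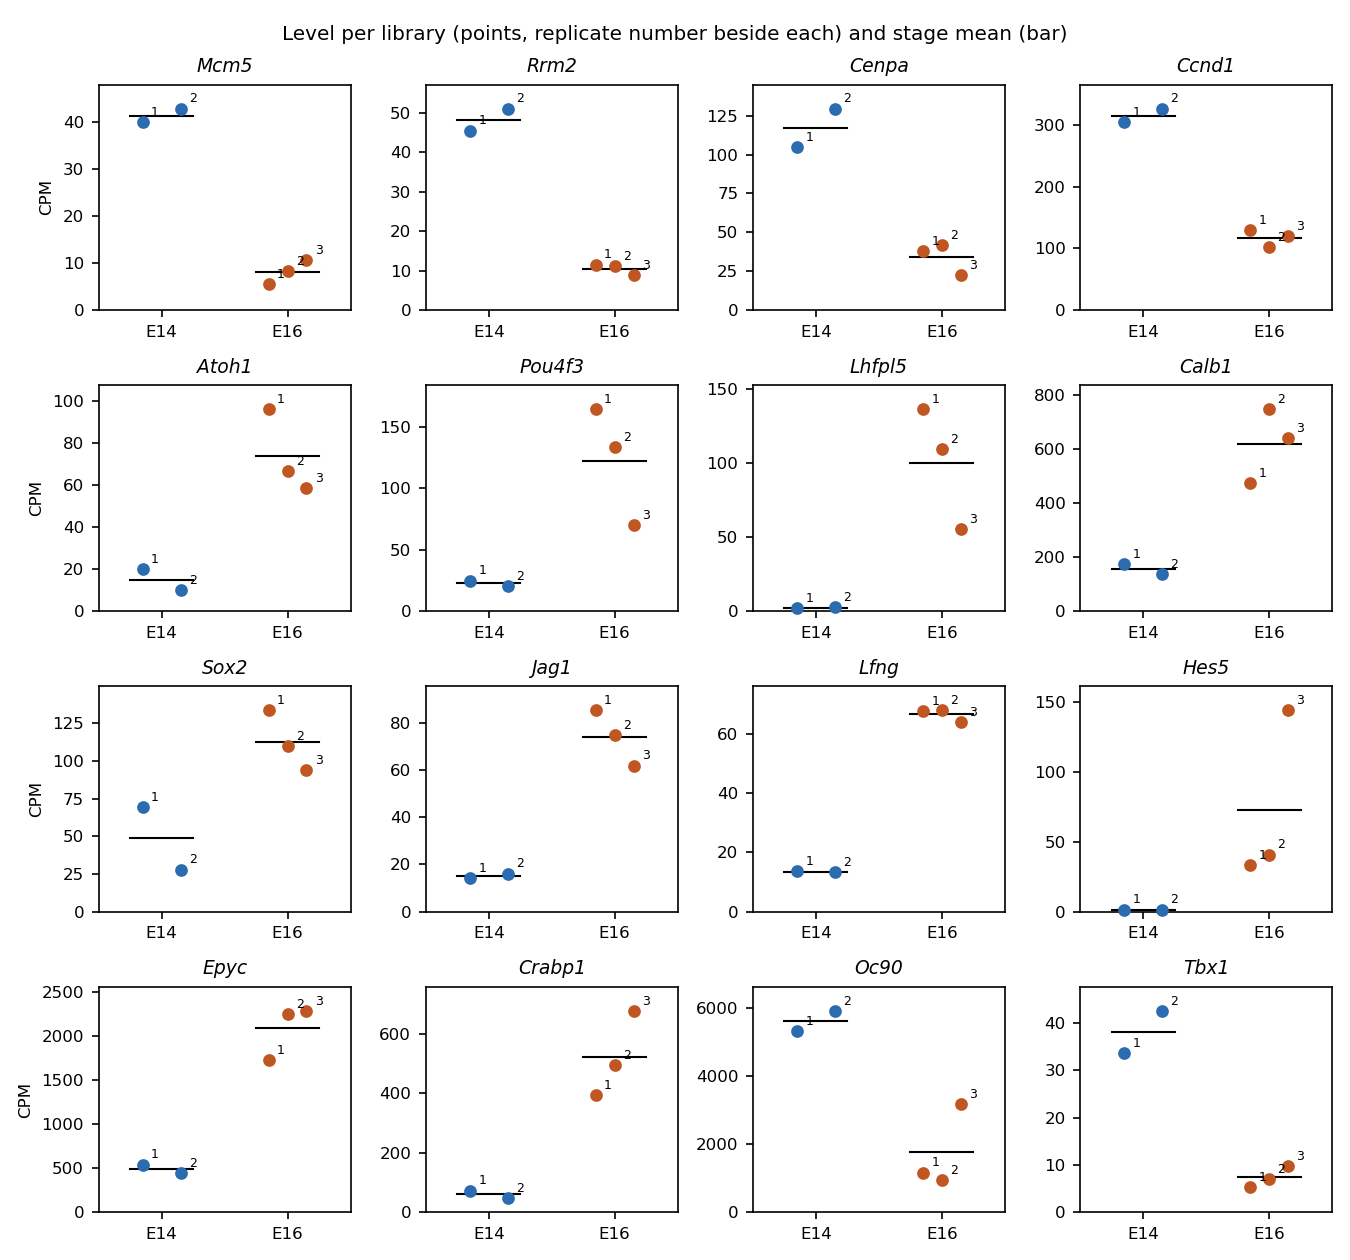
CPM (y axes, each from 0) of 16 genes in the 5 libraries; points are libraries with their replicate number, bars are stage means. Mcm5, Rrm2, Cenpa, Ccnd1, Oc90 and Tbx1 are lower at E16, the other 10 are higher, and no E14 library overlaps an E16 library; E16 replicate 3 is the highest library for Hes5 at 144 CPM and the lowest of its stage for Pou4f3 at 70.0 CPM.

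Of 30 prosensory and SC genes listed, 26 were tested, 10 rose and 1 fell (median 0.60), against 5.52% higher and 13.9% lower among all genes, and with the 3 groups of cells left out 9 of 27 rose and 2 fell (median 0.65, against 5.11% higher among all genes). Fabp7, Npy, Matn4 and Prss23 were described by the study in SCs or Kölliker's organ from other libraries of this series, which makes their direction no independent evidence. Fzd9 and Nrcam were listed by the study for lateral prosensory cells from its E14 cells, so they are no independent evidence either. Sox2, the transcription factor of the prosensory domain, was at 69.4 and 27.9 CPM at E14 and at 134, 110 and 93.9 CPM at E16 (1.15, SE 0.31, adjusted p = 0.0432), but it was not called without the Oc90 cells (1.01, adjusted p = 0.0526) or the 3 groups of cells (0.94, adjusted p = 0.0714). S100a1, a calcium-binding protein, rose from 193 and 179 CPM to 733, 576 and 579 CPM (1.70, SE 0.15, adjusted p = 0.00210). Fabp7, a fatty acid-binding protein, had the largest rise of the list, from 3.23 and 7.06 CPM to 54.6, 93.2 and 33.1 CPM (2.14, SE 0.34, adjusted p = 0.0127). Npy, a neuropeptide (1.69), Matn4, a matrix protein (1.43), S100b (1.23), Nrcam, an adhesion molecule (1.22), Prss23, a protease (1.18), Fzd9, a Wnt receptor (0.92), and Gjb6, the gap junction protein connexin 30 (0.75), also rose, of which Gjb6 was not called without the Oc90 cells (adjusted p = 0.0578).

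Several genes of the lateral duct floor were uneven among the E16 libraries. Prox1, a factor of lateral prosensory cells, was at 9.74 and 6.23 CPM at E14 and at 57.04, 35.0 and 11.9 CPM at E16 (1.18, SE 0.42, adjusted p = 0.0938), and Fgfr3, the receptor of pillar and Deiters' cells, at 22.5 and 16.5 CPM and at 67.0, 54.3 and 23.6 CPM (0.91, SE 0.34, adjusted p = 0.101). All E16 libraries were above those of E14 for both, with replicate 3 close to E14, and neither was called. Fst, an activin antagonist, was at 240 and 226 CPM at E14 and at 68.2, 58.4 and 169 CPM at E16 (-1.30, SE 0.38, adjusted p = 0.0551). Fgf20, a prosensory ligand that the study used as a medial and not a lateral marker, was the member of the list that fell. It went from 20.6 and 21.2 CPM to 8.35, 3.64 and 10.4 CPM (-0.84, SE 0.19, adjusted p = 0.0278), and it was not called under either scaling.

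Notch genes that rose comprised ligands, glycosyltransferases and 1 target. Of 16 tested members 5 rose and 0 fell (median 0.28), against 5.52% higher and 13.9% lower among all genes. With the 3 groups of cells left out 3 of 13 rose, against 5.11%. Without E16 replicate 3, 7 were higher and 2 lower, against 16.2% and 31.8%. Jag1, the ligand of the prosensory domain, was at 14.2 and 16.1 CPM at E14 and at 85.3, 74.8 and 61.8 CPM at E16 (1.73, SE 0.16, adjusted p = 0.00239). Lfng, a Fringe enzyme that tunes Notch receptors, was similar in all libraries of a stage, at 13.6 and 13.4 CPM against 67.8, 68.0 and 63.9 CPM (1.70, SE 0.12, adjusted p = 0.00113). Mfng, another Fringe, rose less (0.85, SE 0.23, adjusted p = 0.0447) and was not called with ribosomal protein, mitochondrial and haemoglobin genes out of the total. Dll3, a divergent ligand, went from 5.20 and 2.77 CPM to 23.2, 16.0 and 12.6 CPM (0.95, SE 0.19, adjusted p = 0.0220). Mfng and Dll3 were under the filter with the 3 groups of cells left out. The receptor Notch1 was at 85.9 and 106 CPM and at 150, 121 and 84.4 CPM, and the DNA-binding partner Rbpj at 33.4 and 32.0 CPM and at 42.96, 30.0 and 24.3 CPM, and neither was called.

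The target Hes5, a repressor of Atoh1 in SCs, was measured with 22 and 23 UMIs at E14 (1.53 and 1.47 CPM) and at 33.1, 40.8 and 144 CPM at E16 (2.60, SE 0.50, adjusted p = 0.0196). Hes1, a related repressor, had no such order: 884 and 412 CPM at E14 and 170.2, 176 and 2476 CPM at E16 (-0.49, SE 1.10, adjusted p = 0.771), and without E16 replicate 3 it was lower at E16 (-1.75). For both, E16 replicate 3 was the highest library. The Hes5 promoter is shown because Notch acts through the DNA-binding protein RBPJ, whose element GTGGGAA is marked in capitals on either strand.
Hes5, chr4:154960673-154960972, + strand: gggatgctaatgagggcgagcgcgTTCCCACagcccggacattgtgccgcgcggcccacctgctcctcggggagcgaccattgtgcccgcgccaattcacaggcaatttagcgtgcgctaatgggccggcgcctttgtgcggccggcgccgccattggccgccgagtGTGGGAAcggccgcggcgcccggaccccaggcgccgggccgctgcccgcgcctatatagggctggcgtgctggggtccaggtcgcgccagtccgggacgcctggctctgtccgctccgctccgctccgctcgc
The window held 2 such elements, beginning 83 and 226 bases before the start site. The same letters occurred in 3 of the 16 Notch pathway promoters found (18.8%), against 6.39% of all promoters and 5.66% of those of tested genes.

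The counts of the other signaling pathways stand against 5.52% higher and 13.9% lower among all genes. Of 15 tested FGF genes 1 rose and 5 fell (median -0.08). Fgf10, a ligand of the prosensory region and Kölliker's organ, rose from 23.2 and 29.7 CPM to 58.4, 61.4 and 49.8 CPM (0.87, SE 0.15, adjusted p = 0.0141), whereas Fgf9, a ligand of the duct epithelium, fell from 34.5 and 30.0 CPM to 14.0, 19.1 and 13.2 CPM (-0.74, SE 0.15, adjusted p = 0.0231). Without the Oc90 cells Fgf9 was not called (-0.41, adjusted p = 0.107), nor without the 3 groups of cells (-0.45, adjusted p = 0.0927). The feedback inhibitor Spry1 fell from 145 and 161 CPM to 78.2, 81.1 and 58.1 CPM (-0.99, SE 0.16, adjusted p = 0.0127). The target transcription factors Etv4 (-0.69) and Etv5 (-0.66) and the receptor Fgfr2 (-0.62) were lower and lost their calls under at least 1 scaling, and Fgfr2 was not called without the Oc90 cells either (-0.31, adjusted p = 0.131). Fgf8, the ligand of inner HCs, was at 4.87 and 5.54 CPM and at 43.1, 24.0 and 8.04 CPM and was not called (1.07, SE 0.40, adjusted p = 0.103). Of 22 Wnt genes 2 rose and 2 fell (median 0.07): the target Sp5 rose from 9.60 and 5.66 CPM to 23.7, 16.3 and 21.3 CPM (0.79, SE 0.17, adjusted p = 0.0256), and Rspo3, an R-spondin that enhances Wnt signaling, rose (0.67) but was under the filter without the Oc90 cells. The ligand Wnt7b (-0.71) and the inhibitor Sfrp1 (-0.60) were lower, Wnt7b losing its call after median centring and Sfrp1 under both scalings. Of 17 BMP and TGF-beta genes only Nog, the BMP antagonist noggin, was called, falling from 26.3 and 25.3 CPM to 9.68, 10.7 and 13.0 CPM (-0.76, SE 0.13, adjusted p = 0.0150). Bmp4, a ligand of the outer sulcus, was at 187 and 66.5 CPM and at 46.0, 35.8 and 104 CPM and was not called (-0.89, SE 0.49, adjusted p = 0.227). Without E16 replicate 3 the counts of higher and lower genes were 5 and 6 of 15 for FGF, 9 and 2 of 22 for Wnt and 7 and 3 of 17 for BMP and TGF-beta genes, against 16.2% and 31.8% among all genes. None of 7 planar polarity genes was called by limma (median -0.24, 2 at an unadjusted p under 0.05).

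Retinoic acid genes held the second largest rise of all genes named by rank. Crabp1, a cytoplasmic retinoic acid-binding protein (mm10, chr9:54764748-54773110), went from 73.1 and 47.3 CPM to 395, 493 and 676 CPM (2.91, SE 0.25, adjusted p = 0.00210), while its relative Crabp2 was not called (-0.11). Of 10 tested members 2 rose and 2 fell, against 5.52% and 13.9% among all genes. The degrading enzymes went opposite ways, with Cyp26b1 at 31.1 and 29.5 CPM against 69.3, 66.6 and 42.6 CPM (0.76, SE 0.20, adjusted p = 0.0408) and Cyp26a1 at 14.2 and 24.5 CPM against 4.77, 3.92 and 9.14 CPM (-0.87, SE 0.21, adjusted p = 0.0331). Aldh1a3, a synthesizing enzyme, was lower (-0.73, SE 0.16, adjusted p = 0.0248). Cyp26a1 was not called under either scaling and Aldh1a3 not after median centring. With E16 replicate 3 left out, 2 members were higher and 3 lower, against 16.2% and 31.8% among all genes. Without the Oc90 cells Cyp26b1 was not called (0.66, adjusted p = 0.0510) and Cyp26a1 was under the filter.

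Of 16 tested genes of the tectorial membrane and apical matrix, which cover the sensory strip, 7 rose and 0 fell (median 0.52), against 5.52% higher among all genes, and the same counts were measured with the 3 groups of cells left out. Matn1, a matrilin, went from 3.37 and 3.34 CPM to 35.2, 28.2 and 28.1 CPM (1.596, SE 0.14, adjusted p = 0.00210). Mia, a small secreted protein of cartilage, went from 1040.4 and 1062 CPM to 2285, 2887 and 3609 CPM (1.44, SE 0.20, adjusted p = 0.00935). The fibrillar collagens rose to unequal extents: Col11a1 from 99.6 and 109 CPM to 288, 282 and 187 CPM (1.18), Col11a2 from 34.3 and 37.3 CPM to 86.4, 102 and 78.8 CPM (1.10) and Col2a1 from 712 and 666 CPM to 1063, 997 and 1124 CPM (0.62). Chst2, a sulfotransferase (1.20), and Itm2a, a membrane protein (0.90), also rose. Tecta, the main non-collagen protein of the tectorial membrane, was at 428 and 449 CPM and at 549, 507 and 510.1 CPM and was not called (0.25, SE 0.11, adjusted p = 0.167).

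Of 13 small leucine-rich proteoglycans 4 were tested and 2 rose, against 5.52% higher among all genes. Epyc, epiphycan (mm10, chr10:97644068-97682454), reached 1732, 2250 and 2290.1 CPM at E16 from 542 and 449.6 CPM at E14 (2.05, SE 0.17, adjusted p = 0.00209), and Ogn, osteoglycin, 42.1, 41.7 and 32.3 CPM from 6.52 and 7.90 CPM (1.495, SE 0.15, adjusted p = 0.00371). Dcn and Lum, which fibroblasts also make, were not called (0.16 and 0.10). Of 15 basement membrane genes 1 was higher and 1 lower (median 0.03), near or below the background of 5.52% and 13.9% (3 and 3 without E16 replicate 3, against 16.2% and 31.8%): Itga8, an integrin of sensory cells, rose from 80.2 and 73.5 CPM to 147, 162 and 116 CPM (0.79, SE 0.16, adjusted p = 0.0210), and Lamb1, a laminin chain, was lower (-0.50) but was not called under either scaling or without the Oc90 cells (-0.29).

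Of 23 tested transcription factors of otic patterning 2 rose and 5 fell (median 0.01), against 5.52% higher and 13.9% lower among all genes. Tbx1, a factor of non-sensory otic epithelium (mm10, chr16:18580979-18590671), fell from 33.5 and 42.5 CPM to 5.33, 7.05 and 9.81 CPM (-1.47, SE 0.16, adjusted p = 0.00499), Gata2 from 266 and 190.2 CPM to 88.5, 80.4 and 103 CPM (-1.23, SE 0.18, adjusted p = 0.00957), and Lmx1a, which separates non-sensory from sensory fates, from 47.9 and 43.5 CPM to 16.0, 14.4 and 18.2 CPM (-1.09, SE 0.13, adjusted p = 0.00604). Tbx3 was also lower (-0.86). Without the Oc90 cells described next, Tbx1 and Tbx3 were under the filter and Lmx1a had a log2 fold change of -0.62 (adjusted p = 0.0494), while Gata2 had -1.15. Isl1 was lower (-0.50) and lost its call under both scalings. Sox9, a factor of otic progenitors, rose from 179 and 213 CPM to 327, 309 and 315 CPM (0.67, SE 0.12, adjusted p = 0.0169). Gata3, a factor of the whole prosensory duct, was at 358 and 300.1 CPM and at 427, 342 and 434 CPM and was not called.

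Oc90, the otoconial protein that marks the duct roof, had the largest fall of the genes named by rank and was among the most abundant, at 5322 and 5916 CPM at E14 and 1170.4, 955 and 3176 CPM at E16 (-1.87, SE 0.47, adjusted p = 0.0376). It was not called under the scalings (adjusted p = 0.0596 and 0.0567). Cells with at least 3 UMIs of Oc90 made up 15.4% and 18.4% at E14 and 5.14%, 4.59% and 7.95% at E16 (means 16.9% ± 2.16 and 5.89% ± 1.80, exact two-sided permutation test, p = 0.1, the smallest possible). The marker of the roof was therefore present in all 5 libraries, and the share of cells with it moved with stage. Of its Oc90 cells at P1 the study states that they likely were roof cells, kept so that the full width of the floor was sampled. Of 6 tested roof genes 1 rose and 3 fell (median -0.59), against 13.9% lower among all genes. The roof factor Otx2 fell from 20.5 and 20.9 CPM to 6.30, 5.95 and 9.58 CPM (-0.83, SE 0.14, adjusted p = 0.0146) and was under the filter without the Oc90 cells, and Otol1, the otoconial matrix protein otolin, from 95.7 and 111 CPM to 17.3, 17.4 and 42.0 CPM (-1.74, SE 0.29, adjusted p = 0.0137). Of the other tested roof genes, Sparcl1, a matricellular protein, rose (1.06, SE 0.15, adjusted p = 0.00866) and Vmo1 and Wnt4 were not called. With the 3 groups of cells left out, Otol1 kept a log2 fold change of -1.85.

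**Figure D4:**
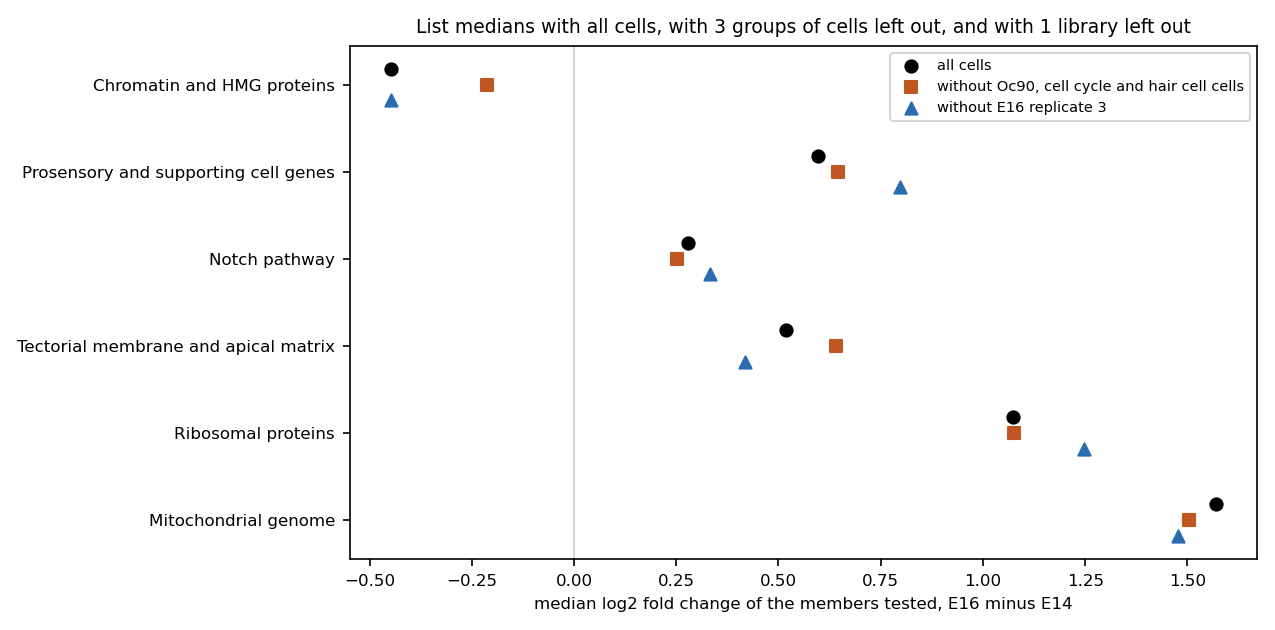
Median log2 fold change (x axis, E16 minus E14) of the tested members of 6 lists (rows) with all cells (circles), without Oc90, cell cycle and 9-gene hair cell cells (squares) and without E16 replicate 3 (triangles); lists whose members were used to find the cells are not shown. With the cells left out the medians are 0.65 for prosensory and supporting cell genes (0.60 with all cells), 0.64 for tectorial membrane genes (0.52), 1.08 for ribosomal proteins (1.07) and -0.21 for chromatin genes (-0.45); the members tested differ between settings.

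Counts in many lists moved when E16 replicate 3 was left out: of the lists above, 17 prosensory and SC genes were then higher and 4 lower of 27, and 8 patterning factors were higher and 6 lower of 23, against 16.2% and 31.8% among all genes. Of 23 tested epithelial adhesion genes and keratins 2 rose and 2 fell (median -0.21), against 5.52% and 13.9% among all genes, but without E16 replicate 3 these counts were 6 and 12. Krt18, a keratin of simple epithelia, was at 1695 and 1324 CPM at E14 and at 377, 421 and 1574 CPM at E16 (-1.23, SE 0.57, adjusted p = 0.165), and Cldn4, a tight junction claudin, at 423 and 411 CPM and at 111, 116 and 491 CPM (-1.12, SE 0.58, adjusted p = 0.207). For both, E16 replicate 3 lay near the E14 libraries. Tjp1, a tight junction scaffold (0.72), and Krt7 (0.56) rose, and Cldn9 (-0.67) and Marveld2 (-0.56), both of tight junctions, were lower but lost their calls under the scalings. Of 25 endoplasmic reticulum genes 4 fell (median -0.24), a share near the 13.9% lower among all genes: Ddit3, a factor of the unfolded protein response, from 67.8 and 66.4 CPM to 25.6, 23.2 and 38.8 CPM (-0.997, SE 0.19, adjusted p = 0.0179), and Xbp1 (-0.76), the collagen chaperone Serpinh1 (-0.75) and Dnajb11 (-0.51), which lost their calls under the scalings. Without E16 replicate 3 the list had 13 lower. None of 20 tested glycolysis and hypoxia genes was called by limma (median 0.03, 3 at an unadjusted p under 0.05), and without E16 replicate 3 the count was 1 higher and 8 lower of 19.

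Immediate early genes, which cell dissociation can induce, changed in few members. Of 16 tested 2 fell, a share near the 13.9% among all genes: Jun from 3204.5 and 2703 CPM to 826, 1058 and 1308 CPM (-1.48, SE 0.21, adjusted p = 0.00957), and Dusp1, a phosphatase of kinase signaling, from 291 and 260.2 CPM to 123, 122 and 150.2 CPM (-1.02, SE 0.14, adjusted p = 0.00803). Fos was at 288 and 337 CPM and at 638, 737 and 129.8 CPM, and Egr1 at 110.3 and 67.1 CPM and at 364, 294 and 52.4 CPM, and both had the lowest value in E16 replicate 3. Without that library 7 members were higher and 4 lower, against 16.2% and 31.8% among all genes. Klf6, a zinc finger factor of growth and injury responses, fell from 1315 and 1260.0 CPM to 351, 352 and 491 CPM (-1.69, SE 0.17, adjusted p = 0.00396).

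Further falls among the 15 largest were those of Pclaf, a PCNA-binding protein of replication (-1.79), Pttg1, securin (-1.61), Tac1, the tachykinin precursor (-1.57), Fbln1, a fibulin of the matrix (-1.501), Herpud1, of protein quality control (-1.44), and Cdca8, of the chromosomal passenger complex (-1.40). With the 3 groups of cells left out Pclaf had a log2 fold change of -0.39 and was not called (adjusted p = 0.291), and Cdca8 was under the filter. Tac1 and Herpud1 were not called under either scaling. Tac1 was at 129 and 118 CPM at E14 and at 33.999, 16.5 and 67.4 CPM at E16. Fbln1 was at 76.7 and 76.6 CPM and at 11.9, 20.1 and 33.4 CPM. Among the 15 largest rises, Ccl21a, a chemokine with near-identical copies that make its count uncertain, went from 1.08 and 0.980 CPM to 71.5, 65.0 and 24.9 CPM (2.44, SE 0.35, adjusted p = 0.00987) and was under the filter with the 3 groups of cells left out. Wdr89, a WD repeat protein, went from 106 and 119 CPM to 764, 735 and 393 CPM (2.33), and the unnamed locus AC121965.1 from 40.8 and 60.0 CPM to 307, 310.2 and 336 CPM (2.46). In the lists of other cell types Pecam1, an endothelial adhesion molecule and the 1 tested member of its list, rose (1.17, SE 0.24, adjusted p = 0.0235). Tubb3, a neuronal tubulin, fell (-0.71, SE 0.14, adjusted p = 0.0192). It was the 1 called member of 6 tested neuron and glia genes (median 0.07), against 13.9% lower among all genes. Of these 6, 2 had all E16 libraries above those of E14 and 2 had all below. Neither the 3 tested haemoglobin genes nor the 1 tested mesenchyme gene, Postn, was called by limma (0 and 0 at an unadjusted p under 0.05), and no melanocyte gene reached the filter. Of 4 tested sex-linked genes Tsix rose (1.21) but was under the filter without E16 replicate 3, and Ddx3y was lower (-0.79) and lost its call under both scalings; Tsix overlaps Xist on the opposite strand, and since the use of strand in counting is not given in the sources used here the reads of the pair cannot be told apart.

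Ribosomal protein genes gave the largest change of the transcript total. Together they made up 97379 and 101807 CPM at E14 and 173616, 167424 and 159752 CPM at E16, and the 18 genes of the mitochondrial genome 6668 and 8855 CPM against 20674, 17491 and 14645 CPM. Of 84 tested ribosomal protein genes 54 rose and 1 fell (median 1.07), against 5.52% higher among all genes, and of 11 tested mitochondrial genes 10 rose (median 1.57, from 1.07 for mt-Cytb, cytochrome b, to 2.80 for mt-Atp6, an ATP synthase subunit, among those called). Both lists had about the same medians with the 3 groups of cells left out (1.08 and 1.504). Since levels are shares of a total, this rise lowers the shares of the other genes, which is why the scalings are given above. Ribosomal protein genes have many near-identical copies in the genome, so their counts are uncertain where alignment could split reads between copies.

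The ribosomal protein genes did not move by a common factor. Rpl39 went from 69.3 and 115 CPM to 2417, 2323 and 1726 CPM (4.43, SE 0.23, adjusted p = 0.000896), Rps29 from 393 and 557 CPM to 3921, 3635 and 4834 CPM (3.10) and Rpl38 from 113 and 143 CPM to 1059.6, 929.9 and 1199.6 CPM (2.96). By contrast Rpl4 was at 3612 and 3799 CPM and at 3237, 3136 and 3118 CPM (-0.23, SE 0.14, adjusted p = 0.265). The member that fell, Rpl7l1, is a nucleolar relative of the ribosomal protein Rpl7 (-0.77, SE 0.12, adjusted p = 0.0118). Over the list the fold changes spanned the range from -0.77 to 4.43.

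Within both groups of genes the fold change went with the length of the coding sequence (longest per gene, GENCODE vM21). Across 81 ribosomal protein genes Spearman's rho between them was -0.73, and across 79 nuclear genes of the respiratory chain -0.79, against 0.0055 across 8457 tested genes; genes of 1 library are not independent, so no p is given. Ribosomal protein genes of up to 300 coding bases had a median of 2.42 and all 9 rose, while those of over 300 and up to 450 bases had 1.54 (27 of 29 rose), up to 600 bases 1.11 (11 of 18), up to 900 bases 0.54 (7 of 21) and up to 1500 bases 0.18 (0 of 4). Of 80 tested nuclear respiratory chain genes 23 rose and 12 fell (median 0.08), against 5.52% and 13.9% among all genes. Of the 19 with up to 300 bases 15 rose, with a median of 0.65, while of the 8 with over 900 and up to 1500 bases 5 fell, with a median of -0.56, and of the 4 with over 1500 and up to 3000 bases 2 fell, with a median of -0.46. Uqcrb, a small subunit of complex III, went from 67.9 and 86.1 CPM to 397, 410.0 and 409.7 CPM (2.26, SE 0.13, adjusted p = 0.000896), while Uqcrc1, a large subunit of the same complex, went from 354 and 344 CPM to 169, 182 and 234 CPM (-0.82, SE 0.16, adjusted p = 0.0192). Atp5k (2.21) and Usmg5 (2.39), small proteins of the ATP synthase, rose as well, and Sdhb, a complex II subunit, was lower (-0.69). Uqcrc1 and Sdhb were not called after median centring, where 25 respiratory chain genes were higher and 0 lower. With E16 replicate 3 left out, 30 were higher and 27 lower, against 16.2% and 31.8% among all genes. In all other genes the medians by length were 0.16 for up to 300 bases, -0.06 for over 300 and up to 450 bases and between -0.24 and -0.04 for longer ones. They were lowest for over 900 and up to 1500 bases (-0.24) and higher again for over 3000 bases (-0.04). Of 165 other genes of up to 300 bases 43 rose and 9 fell, against 5.52% and 13.9% among all genes. Of 2341 with over 900 and up to 1500 bases 63 rose and 399 fell. Rises described above for other genes of up to 300 bases thus also stand beside 43 of 165, and the part of coding length in them was not tested. Malat1, a long nuclear RNA with no coding sequence, was at 23425 and 25218 CPM at E14 and at 10644, 11248 and 16676 CPM at E16 (-0.95, SE 0.25, adjusted p = 0.0409) and was not called under the scalings. Both stages were aligned to mm10 with the same version of the counting software according to the submitters' notes, and the part of read length, chemistry or RNA quality in this pattern was not tested.

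**Figure D5:**
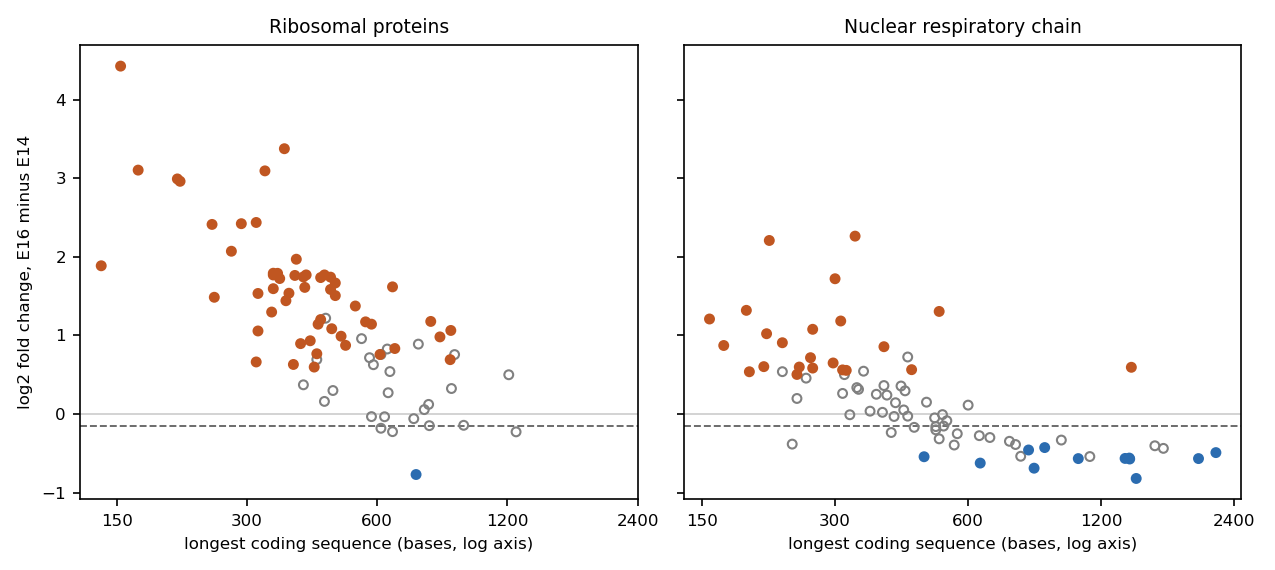
Log2 fold change (y axis, E16 minus E14) against the longest coding sequence in bases (x axis, log scale) for 81 ribosomal protein genes (left) and 79 nuclear respiratory chain genes (right); filled points are called, open points are not, and the dashed line is the median of all tested genes, -0.16. Shorter coding sequences go with higher values at E16 in both sets, with Spearman's rho of -0.73 and -0.79.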

How the data were processed

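Reads were aligned and counted by the authors with Cell Ranger 2.1.1 (mm10) and processed in Seurat 2.0, keeping genes found in at least 10 cells and with stated limits on gene number, UMIs, mitochondrial and stress content of a cell and removal of non-epithelial cells. The deposited libraries still held cells above the upper limits, unevenly by stage: 340 and 552 cells at E14 and 0, 134 and 15 at E16 had over 3000 genes, and 36 and 51 at E14 and 0 at E16 over 15000 UMIs. They were kept here, and without them the numbers of genes higher at E16 and genes lower at E16 were 524 and 1283. No doublet caller was run here, and how doublets were treated upstream is not given in the sources used here. The authors deposited, per cell, the natural log (ln) of 1 plus the share of UMIs times 10000; the number of UMIs behind each value was recovered (100% whole within 2%), and for embryos the dissociation enzyme differs between the labels (papain) and the methods (trypsin). Here values were back-transformed and averaged over the cells of each library. Genes with rows at both stages (19593) and a mean of at least 10 CPM over the 5 libraries were tested on log2(CPM + 10) with limma 3.58.1 in R 4.3.3 (mean trend, 3 residual degrees of freedom). This was checked on simulated data with known changes and the same independent spread in every library. The simulation held no library set apart like E16 replicate 3, so it does not cover that case. Lists were described by counts and medians, with no test of the list.

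The gene lists, the groups of cells and the comparison itself were chosen with earlier results of these data known. Named genes are the 15 largest called rises and falls without overlap between the stages (leaving out Gm and Rik, mitochondrial, ribosomal protein, haemoglobin and sex-linked genes) and the largest and smallest called change of each list; further members, and Malat1, were named after their values were seen, and 1 gene that the rule names is not reported here. Shares of cells were compared by exact permutation over libraries; their intervals and the limits set by depth (3828399 to 14420835 UMIs per library) cover counting error only. Alternatives covered the pseudocount, filters, scalings, averaging, thinning to 1500 UMIs, groups of cells, the prior variance, a replicate block and leaving out each library.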

Additional observations from a re-analysis of the deposited data

How the results depend on the processing

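The counts of called genes rested on single libraries. Leaving out 1 library in turn gave 69 to 1480 genes higher at E16 and 6 to 2896 genes lower at E16: 69 and 7 without E14 replicate 1, 69 and 6 without E14 replicate 2, 242 and 363 without E16 replicate 1, 120 and 81 without E16 replicate 2, and 1480 and 2896 without E16 replicate 3. A stage left with 1 library was assumed to vary like the other. A filter at a mean of 50 CPM, which tests fewer genes, gave 303 higher and 820 lower. The count of lower genes moved by more than 1.5 times, and that of higher genes by less, in 4 further settings: to 367 with median scaling (671 higher), to 443 with mitochondrial, ribosomal protein and haemoglobin genes out of the total, to 533 without cells over the threshold of the hair cell list (the planned removal, which takes out most cells) and to 4204 on the mean of the deposited ln values; the cause was not tested. The numbers of higher genes ranged from 333 to 671 over all settings other than the 50 CPM filter, the block and a library left out. With the replicate number as a block the counts were 1406 and 2668, but the numbers did not pair the samples: the deviations of same-numbered libraries from their stage means correlated at -0.198 and 0.0518. The difference in the share of cells with cell cycle transcripts was -23.4 percentage points at a threshold of 2 UMIs and -13.5 at 5 UMIs, against -19.3 at 3. Of 164 named genes with a fit, 134 were called; 105 lost their call without E14 replicate 1, 108 without E14 replicate 2, 51 without E16 replicate 1, 89 without E16 replicate 2 and 0 without E16 replicate 3. Over 22 alternatives 2 of the called genes turned sign, Isl1 (0.24) without cells over the hair cell list threshold and Pou4f3 (-0.11) without all 3 groups of cells, which were found with it. Genes that were not called turned as follows: Fst (0.057), Crabp2 (0.061) and Rbpj (0.12) without cells over the hair cell list threshold; Crabp2 (0.032 and 0.034) and Rbpj (0.11 and 0.078) under median scaling and the other scaling; Cks2 (-0.052), Dcn (-0.0072), Notch1 (-0.025) and Rprm (-0.044) on the mean ln values, where the Lum log2 fold change was -0.00216; Rbpj (0.035) without cells over 3000 genes or 15000 UMIs; Lum (-0.034) without Oc90 cells; Pcna (0.28), which was used to find those cells, and Rprm (-0.056) without cell cycle cells; Pcna (0.25) and Rprm (-1.16) without all 3 groups; Rprm (-0.74) without 9-gene cells; and Dcn (-0.058), Lum (-0.061), Rbpj (0.11) and Vmo1 (-0.13) with the block. With 1 library left out Hes1 ranged from -1.75 to 0.15, Crabp2 from -0.32 to 0.057, Dcn from -0.058 to 0.35, Fos from -0.094 to 1.115, Lum from -0.061 to 0.30, Rbpj from -0.21 to 0.11, Rprm from -0.032 to 0.36 and Vmo1 from -0.13 to 0.66.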
